A study of Mus musculus with 5 samples.

Results

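Short-range contacts were examined across the Shh region of mouse chromosome 5 (mm9), taken as every pair of assayed restriction fragments whose ends lay less than 56 kb apart. Of 31328 fragment pairs within the region, 2141 (6.83%) met this limit, out of 33306 pairs listed for the whole series. Membership used position only and no read count. The pairs joined 354 HindIII fragments, 176 read by a forward and 178 by a reverse 5C primer, and every one of the 354 took part in at least 1 member.

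Chromosome conformation capture carbon copy (5C) measures how often fragments of cross-linked chromatin become ligated to each other. Chromatin is fixed, cut with HindIII and religated, and each ligation junction is copied by a forward primer on one fragment and a reverse primer on the other, so a read count per pair stands for an interaction frequency. Neighbouring sequences on a chromatin fibre meet most often, and interaction frequencies fall with linear distance. The slope of that fall and the height of the curve at a given distance are the usual descriptions of local folding. Shh encodes a secreted morphogen that patterns the limb and the neural tube. Its expression in the limb depends on the ZRS, an enhancer found inside the gene Lmbr1. SBE4, a forebrain enhancer of Shh, sits in the long gene-poor interval between them.

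The libraries came from CD1 mouse embryos at E11.5, with no mutation or drug named for any group. Limb was whole fore- and hindlimb buds pooled from many embryos (2 biological replicates), body was embryos without limbs and heads (1 library) and head was embryonic heads (1 sample sequenced as 2 technical libraries, summed here). All 3 are mixtures of cell types, and the cells of the zone of polarising activity that express Shh are a minority of the limb buds. No expression was measured, so the tissue labels were not checked against marker genes. Libraries held 675954 and 1714491 reads (limb), 1056071 (body) and 1048682 and 931061 (head).

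The region was compared in 3 stretches, each pair with both fragment midpoints inside it. The stretch 3′ of Shh (chr5:28317087-28765086) carries Insig1, En2, Cnpy1 and Rbm33, and held 500 short-range pairs on 89 fragments. The Shh stretch (chr5:28765087-29689086) runs from Shh across the gene desert to Rnf32 and most of Lmbr1, and held 1141 pairs on 190 fragments. The stretch beyond Lmbr1 (chr5:29689087-30005000) carries the 5′ end of Lmbr1, Nom1, Mnx1 and Ube3c, and held 463 pairs on 75 fragments. A further 28 pairs crossed the edge at Shh and 9 the edge in Lmbr1. Distances ran from 108 to 55972 bp, with medians of 27122, 25001 and 25667 bp in the 3 stretches, and fragments were spaced alike (19.9, 20.6 and 23.7 per 100 kb).

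The most-read short-range pair of each stretch, and the fragments that overlap Shh itself, are shown by the last bases of each fragment, the end from which distances are counted. Letters are the plus strand of the mm9 genome and capitals mark the HindIII site at that end.
F45 (chr5:28486174-28486219): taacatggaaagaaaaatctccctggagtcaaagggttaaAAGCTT
R44 (chr5:28484010-28484055): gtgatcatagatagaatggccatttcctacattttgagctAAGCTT
F379 (chr5:29518360-29518405): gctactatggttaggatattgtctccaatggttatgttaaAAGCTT
R403 (chr5:29561886-29561931): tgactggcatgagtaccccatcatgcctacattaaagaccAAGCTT
F461 (chr5:29712988-29713033): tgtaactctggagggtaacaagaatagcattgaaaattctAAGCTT
R460 (chr5:29709663-29709708): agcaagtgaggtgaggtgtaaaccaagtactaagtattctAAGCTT
R145 (chr5:28789482-28789527): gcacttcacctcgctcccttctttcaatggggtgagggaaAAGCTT
F147 (chr5:28793667-28793712): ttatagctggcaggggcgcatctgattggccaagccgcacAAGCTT
F and R stand for forward and reverse fragments. F45, R44, F461 and R460 overlap no protein-coding gene (the latter pair lies within the lincRNA 4632411P08Rik), F379 lies in the desert next to Rnf32, R403 spans an exon of Lmbr1, and R145 and F147 carry exons of Shh. None of the printed bases overlaps an exon of a protein-coding gene. The longest run that the fragments of a pair share in these bases was 6 letters.

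A pair of forward fragments were read in some libraries and next to unread in others, which divides the libraries across tissues. F47 (chr5:28491940-28496579), which holds the 5′ end of En2, was given 753 reads in limb 1 and 773 in body over its 178 pairs, against 12 in limb 2 and 0 in both head libraries. F68 (chr5:28547549-28547729), in Cnpy1, showed the opposite: 0 reads in limb 1 and in body, against 7138 in limb 2 and 3988 and 2878 in head. The abutting pair F68-R69 alone went from 0 reads in limb 1 and 0 in body to 2291 in limb 2, and had 1292 and 876 in head. These fragments were picked out after their values were seen. They enter 13 and 14 short-range pairs, so limb 1 and body shared one pattern and limb 2 and head the other. What set them apart was not tested, and results are given below within each of these sets where it matters.

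Short-range contacts held 43.6% of all reads in limb 1, 47.1% in limb 2, 67.3% in body and 43.2% in head. Wilson 95% intervals cover counting error only and were narrow, the widest being 43.4% to 43.7% in limb 1. Limb averaged 45.3% ± 2.51 (SD, n = 2), and body stood 22.0 percentage points above it while head stood 2.11 below. Within the sets that share F47 and F68, body exceeded limb 1 by 23.7 points and head fell 3.88 points below limb 2. The head libraries on their own gave 46.8% and 39.2%, a spread wider than that of limb. An exact permutation test of limb against non-limb gave p = 1.0, and with 2 samples against 2 no exact p can go below 0.333. Body is a single library, so its distance from the other samples has no replicate of its own.

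Most of the additional short-range reads in body came from abutting fragments, those separated by a single HindIII site. The 244 abutting pairs took 19.8% and 21.8% of all reads for limb, 38.6% for body and 20.4% for head. The remaining 1897 short-range pairs took 23.8% and 25.3% in limb, 28.7% in body and 22.8% in head. Mean reads per 1000000 reads of the library (RPM) per abutting pair were 809.6 and 894.2 in limb, 1583 in body and 836.7 in head. Body was therefore 1.86 times limb for abutting fragments. The ratio was 1.39 for the 169 non-abutting pairs under 8 kb and 1.22 for the 724 pairs from 8 to 28 kb. It was 0.886 for the 1004 pairs from 28 to 56 kb, a class that holds F379-R403, an isolated contact described further on. For this contact limb 1 stood at 8808 RPM and limb 2 at 2027, against 76.7 for body. The ratio of 0.886 therefore rests in part on that pair alone.

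Counted pair by pair, body exceeded both limb replicates in 221 of 244 abutting pairs (90.6%). That fell to 104 of 169 (61.5%) under 8 kb, to 40.7% of pairs from 8 to 28 kb and to 27.7% of pairs from 28 to 56 kb. Pairs share fragments, body is a single library, and the share among pairs beyond 56 kb is not given here. Head stayed close to limb in every class, at 0.982, 0.938, 0.919 and 0.938 times its mean. The 13 abutting pairs whose ends lie 8 kb or more apart also stood high in body, at 1.91 times limb, as did the 231 closer ones at 1.86 times.

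**Figure D1:**
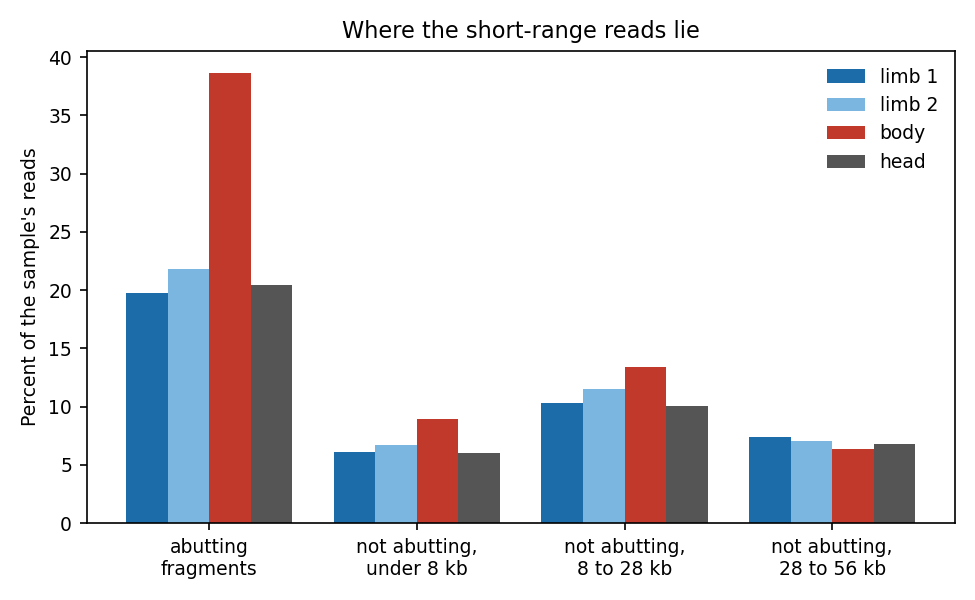
Percent of each sample's reads (vertical axis) in 4 classes of short-range pairs, one bar per sample: 244 abutting pairs, then non-abutting pairs under 8 kb, from 8 to 28 kb and from 28 to 56 kb. Body reaches 38.6% in abutting pairs where the other samples lie between 19.8% and 21.8%. From 28 to 56 kb body is the lowest, at 6.40%. That class includes the isolated contact F379-R403, with 8808 RPM for limb 1, 2027 for limb 2, 3918 for head and 76.7 for body. The distance of body below the other samples there comes in part from this contact.

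The decay of reads with distance was described by a power law in each sample and was steepest in body. A negative binomial regression on the logarithm of distance, with unread pairs kept, gave exponents of -0.756 and -0.810 for the limb replicates, -1.05 for body and -0.792 for head. The standard errors were 0.0223 to 0.0238, computed over pairs that share fragments and hence too small. Limb averaged -0.783 ± 0.0379 (SD, n = 2), so body was lower by 0.270, well beyond that SD, while the difference of head, -0.00957, is within it. Doubling the distance left 59.2% and 57.1% of the reads for limb, 48.2% for body and 57.7% for head. The head libraries gave -0.789 and -0.796 in this regression, but -0.826 and -0.962 in least squares with a term for each fragment, where body was at -1.01.

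Mean RPM fell from 626.5 and 691.3 (limb), 1148 (body) and 643.0 (head) under 8 kb to 55.8 and 59.96 (limb), 55.1 (body) and 53.9 (head) from 48 to 56 kb. The samples therefore lay closer together at the far end of the range than at the near end, with limb 2 the highest at the far end. The curves crossed between 24 and 40 kb, where body went from 1.04 to 0.907 times limb. Limb 1 showed a rise to 93.1 RPM from 40 to 48 kb, the class that holds the isolated contact described further on.

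**Figure D2:**
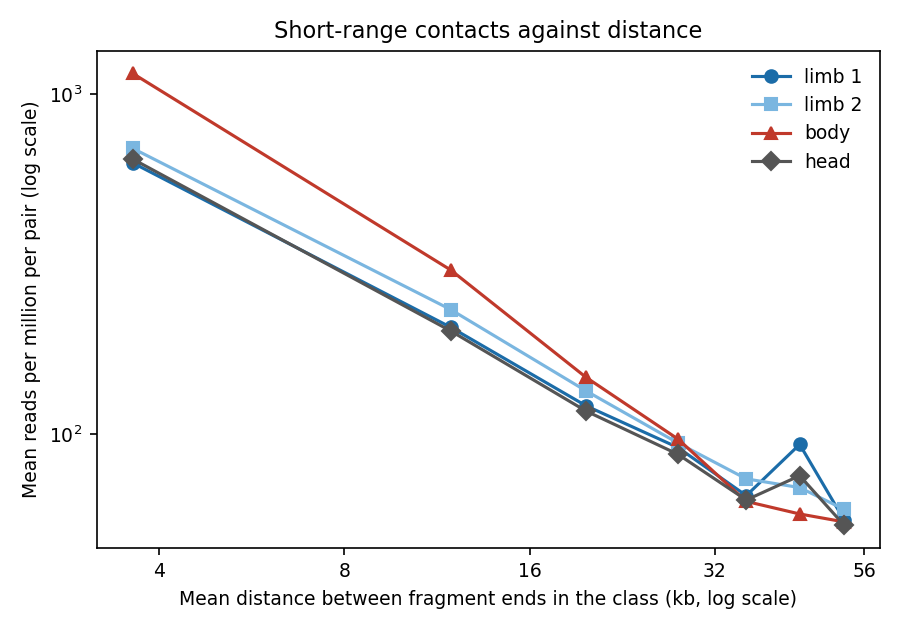
Mean RPM per pair (vertical axis, log scale) against the mean distance of each 8-kb class (horizontal axis, log scale), one line per sample. Body starts highest, at 1148 RPM, and the samples lie close together in the last class, with head lowest at 53.9.

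Without the abutting pairs body minus limb in exponent was -0.236. Within the sets that share F47 and F68, body differed from limb 1 by -0.297 and head from limb 2 by 0.0173. Across the sets, body differed from limb 2 by -0.243 and head from limb 1 by -0.0364. The exact permutation test of limb against non-limb over the 4 samples gave p = 0.667, since head lay with limb. Body minus limb was -0.0756 under Poisson regression and -0.204 in least squares with a separate term for each fragment.

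The decay was much alike in the 3 stretches, and the difference between body and the other samples was present in each. In the stretch 3′ of Shh the exponents were -0.781 and -0.791 in limb, -0.998 in body and -0.746 in head. In the Shh stretch they were -0.737 and -0.820 in limb, -1.09 in body and -0.797 in head. Beyond Lmbr1 they were -0.760 and -0.786 in limb, -1.01 in body and -0.802 in head. Body was the steepest sample in all 3, by 0.212, 0.309 and 0.241 below the limb mean. Between stretches of the same sample the exponents differed from that of the Shh stretch by -0.0442 to 0.0890, while the SD between the limb replicates within a stretch reached 0.0584. In body the outer stretches were shallower than the Shh stretch by 0.0890 (3′ of Shh) and 0.0734 (beyond Lmbr1), against SDs of 0.0513 and 0.0398 for the same differences between the limb replicates. This was not particular to body once the isolated contact in the Shh stretch was left out. The Shh exponent was then -0.837 in limb (mean), -0.841 in head and -1.09 in body. The outer stretches kept -0.786 and -0.773 in limb and -0.746 and -0.802 in head, so they were shallower there too.

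Compaction, read as the fitted RPM per pair at 20 kb, differed between stretches by an amount and in a direction that depended on the regression. It was 118.2 and 132.2 in limb, 161.2 in body and 116.4 in head 3′ of Shh, against 130.1 and 127.3, 131.5 and 120.3 in the Shh stretch, and 138.6 and 147.2, 164.2 and 130.2 beyond Lmbr1. Relative to the Shh stretch of the same sample, the stretch beyond Lmbr1 stood at 1.06 and 1.16 in limb, 1.25 in body and 1.08 in head, above 1 in 4 of 4 samples. The stretch 3′ of Shh stood at 0.908 and 1.04 in limb, 1.23 in body and 0.967 in head, so its direction differed between the limb replicates. For 4 samples of like sign an exact sign test cannot go below p = 0.125, so neither ratio could pass 0.05.

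With each primer's reads at longer distance as offset, the ratios to the Shh stretch were 1.63 (limb), 1.91 (body) and 1.57 (head) for the stretch 3′ of Shh and 1.46, 2.05 and 1.53 beyond Lmbr1. This offset was not corrected for distance, so it also depends on where a fragment lies in the region. Another regression turned the order. Least squares on log2(RPM + 1), in which unread and low pairs weigh more, placed the stretch beyond Lmbr1 at 0.938 (limb), 0.953 (body) and 0.942 (head) of the Shh stretch, and the stretch 3′ of Shh at 0.665, 0.740 and 0.646. Unread pairs made up 11.4% and 10.0% of the stretch 3′ of Shh in limb, 8.00% in body and 11.4% in head, against 1.75% to 2.98% in the Shh stretch and 2.81% to 5.40% beyond Lmbr1.

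**Figure D3:**
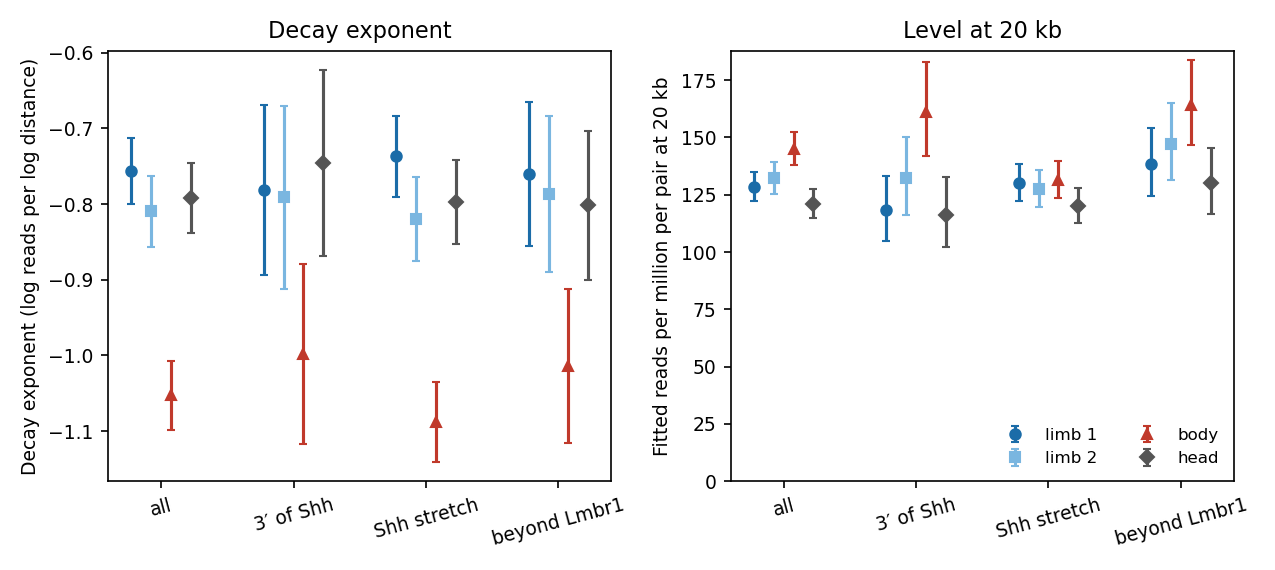
Decay exponent (left) and fitted RPM per pair at 20 kb (right) for all short-range pairs and for each stretch, one point per sample, with 95% intervals of the regression over pairs that share fragments. Body lies lowest on the left in every group, between -1.09 and -0.998, and on the right its point is set apart from limb and head mainly in the outer stretches.

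Pairs that crossed the edge at Shh were read less than the mean of pairs at the same distance in all 4 samples. Across the edge in Lmbr1, body was the farthest below that mean. Observed over expected, where expected is the mean of all short-range pairs of the sample in the same 4-kb distance class, averaged 0.767 and 0.668 for limb, 0.659 for body and 0.691 for head over the 28 pairs that cross the edge at Shh. For the 9 pairs across the edge in Lmbr1 it was 0.973 and 0.898 in limb, 0.657 in body and 0.944 in head. Many of these pairs share the same few fragments, so they are few independent measurements.

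Of the fragments that overlap the Shh gene, F147 was poorly read at short range and R145 less so. Mean observed over expected of F147 was 0.245 in limb 1, 0.290 in limb 2, 0.0707 for body and 0.187 for head. That of R145 was 0.914 in limb 1 and 0.894 in limb 2, near the median of all fragments (0.927), with 0.658 for body and 0.476 for head. Together they entered 18 short-range pairs with a mean observed over expected of 0.573 and 0.595 for limb, 0.358 for body and 0.328 for head, and medians of 0.291, 0.144, 0.0986 and 0.153. The pair between them, F147-R145, 4185 bp apart, had 99, 177, 154 and 184 reads in limb 1, limb 2, body and head, which is 0.349, 0.232, 0.190 and 0.245 of the expected value. The abutting pair F144-R145 had 66, 68, 131 and 127 reads, also below expectation in every sample. By contrast, F140-R145, with a fragment 3′ of Shh, had 126 and 442 reads in limb (1.68 and 2.06 times expected). It had 116 in body (0.871) and 109 in head (0.474).

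F147 was also below expectation at 56 kb or more, but less so as a mean than as a median. Its mean observed over expected there was 0.803 and 0.462 in limb, 0.325 in body and 0.448 in head. Its median observed over expected in the 168 pairs at 56 kb or more was 0.340 and 0.148 in limb, 0.126 in body and 0.195 in head, against 0.864, 0.995, 1.20 and 0.544 for R145. The last 30 bases of F147 are 63.3% GC, against 50.0% for R145. Whether the low local reads of F147 come from the fragment as such was not tested.

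The identity of the fragment carried more of the spread between pairs than distance did. Distance alone accounted for 22.4% to 32.5% of the variance of log2(RPM + 1) over the 2141 pairs, and distance with a term for each fragment for 82.8% to 89.2%. These shares are not adjusted for the number of terms, and terms for 354 fragments raise the share in part by their number alone. Mean observed over expected per fragment ran from 0.00124 to 3.90 with a median of 0.927, with 40 fragments under 0.25 and 22 over 2. Of the 40 low fragments, 33 were also under 0.25 in their contacts at 56 kb or more. Across the 354 fragments, short-range and long-range values correlated at Spearman's rho of 0.768 and 0.786 in limb, 0.823 in body and 0.722 in head, a description over points that share libraries.

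The low fragments were spread over the region, with 14 of 89 (15.7%) 3′ of Shh, 17 of 190 (8.95%) in the Shh stretch and 9 of 75 beyond Lmbr1. Fragments with more GC in their last 30 bases were read less (rho = -0.425) and longer fragments more (rho = 0.357). The dispersion of the regression, its measure of spread between pairs at one distance, was 1.84 and 2.12 in limb, 2.05 in body and 2.19 in head 3′ of Shh, against 1.07 to 1.19 in the Shh stretch and 1.34 to 1.57 beyond Lmbr1. Samples resembled each other pair by pair, with rho between 0.883 and 0.908 among the 4 samples and 0.818 between the head libraries. The highest were limb 1 with body (0.908) and limb 2 with head (0.899), the sets that share F47 and F68. The limb replicates gave 0.888, limb 1 with head 0.889, limb 2 with body 0.886 and body with head 0.883. By this measure replicates were thus no more alike than different tissues.

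Along the chromosome, the profile of local contacts was much alike in limb and head and less so in body. The region was divided into 28-kb windows, and each short-range pair was given to the window of its midpoint. In the 55 windows with at least 10 pairs, observed over expected correlated between samples at rho = 0.911 for the limb replicates, 0.823 and 0.847 for limb with head and 0.609 to 0.676 for body with the others. The window from 28429087, between Insig1 and En2, was the highest by the mean over the 4 samples, at 2.01 and 2.26 for limb, 2.07 for body and 1.81 for head over 11 pairs. The window from 29717087, between Lmbr1 and Nom1, followed at 2.03, 1.90, 1.82 and 1.82, and that from 28457087, next to the highest, at 1.69, 1.75, 1.85 and 1.84. In limb 1 the window from 29717087 was the highest and in head that from 28457087. The limb mean of the latter, 1.72, fell to 1.07 with the windows shifted by 14 kb and to 1.15 as a median over pairs. Its value therefore depended on the grid and the average. The limb median over all pairs of a stretch was lower, at 0.703 to 0.798.

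The lowest window was the first of the region, from 28317087, at 0.132 and 0.112 for limb, 0.150 for body and 0.0954 for head over 20 pairs. It was followed by the window from 28765087, which holds the 3′ part of Shh, at 0.738, 0.601, 0.449 and 0.581 over 25 pairs, and by that from 28849087, which holds the predicted gene Gm10290 in the desert next to Shh, at 0.661, 0.611, 0.752 and 0.646. The window of the Shh 5′ end stood at 0.843, 0.672, 0.725 and 0.642. All of these lay below 1 in 4 of 4 samples. The limb mean of the first window, 0.122, was 0.441 with the windows shifted by 14 kb and 0.0153 as a median over pairs. Over the windows, the local value correlated with the mean long-range value of the same fragments at rho = 0.304.

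**Figure D4:**
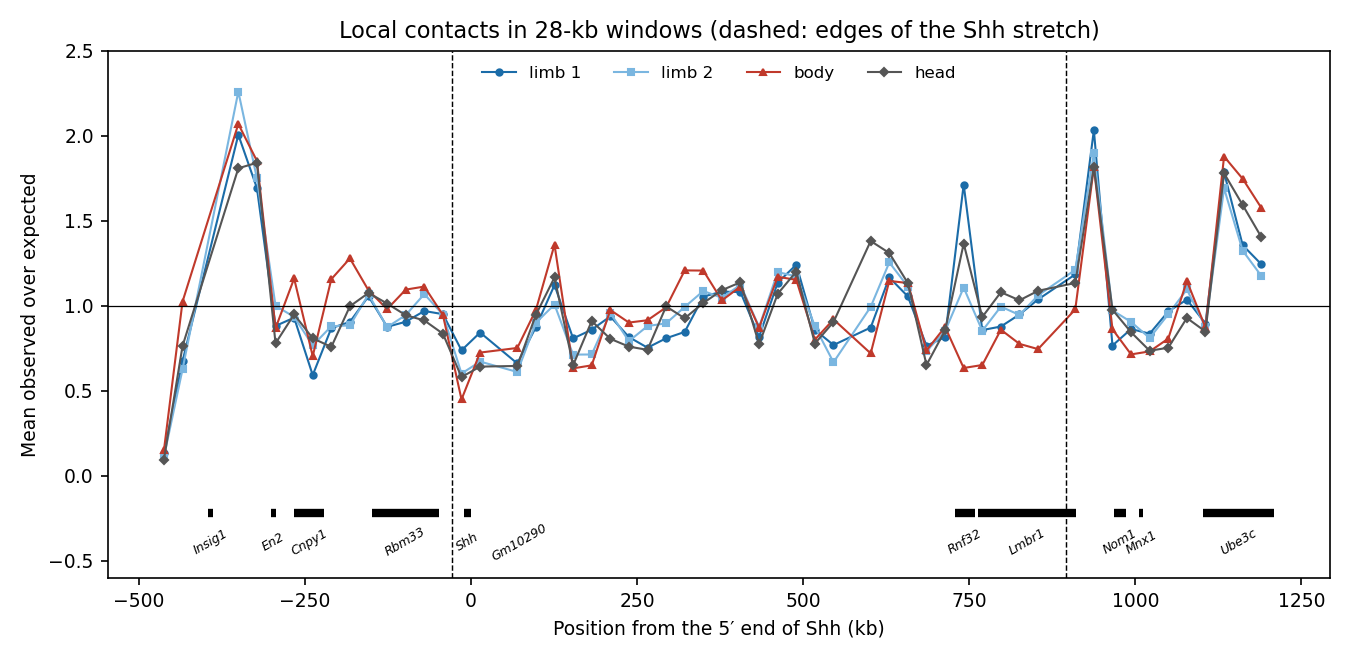
Mean observed over expected of short-range pairs in 28-kb windows with at least 10 pairs (vertical axis) against the position from the 5′ end of Shh in kb (horizontal axis), one line per sample, with black bars for protein-coding genes and dashed lines at the edges of the Shh stretch. Peaks near 2 stand left of En2 and right of Lmbr1 in all 4 samples, Shh lies in a dip, and body runs below the other samples from Rnf32 through Lmbr1.

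Windows at the other gene starts mostly lay nearer to 1. As a median over pairs in place of the mean, the limb value moved from 0.941 to 0.397 for En2 and from 0.874 to 0.564 for Cnpy1. It moved from 1.20 to 0.651 for Lmbr1 and from 1.41 to 0.718 for Rnf32. Since expected is a mean, medians lie below 1 in general. Over all pairs of a stretch the limb median was 0.703 (3′ of Shh), 0.782 (Shh) and 0.798 (beyond Lmbr1), averaged over the replicates. En2, a homeobox transcription factor gene, had 0.881 and 1.00 in limb, 0.868 in body and 0.779 in head. Cnpy1 had 0.868, 0.880, 1.16 and 0.758, and Rbm33, an RNA-binding protein gene, 1.06, 1.07, 1.09 and 1.08. The Lmbr1 start had 1.18, 1.21, 0.979 and 1.13. Nom1, a nucleolar protein gene, had 0.766, 0.973, 0.862 and 0.977, and Mnx1, the homeobox gene of motor neurons, 0.836, 0.810, 0.732 and 0.736. The Ube3c start had 0.895, 0.875, 0.873 and 0.849, whereas the windows inside this ubiquitin ligase gene rose to 1.78, 1.69, 1.88 and 1.78. Insig1, a regulator of sterol synthesis, had only 8 pairs in its window, at 2.08, 2.08, 2.75 and 1.48.

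Body departed from the other samples around Rnf32 and Lmbr1. It was the lowest sample in each of 5 consecutive windows, where it ran from 0.634 to 0.859, against 0.857 to 1.71 in limb 1, 0.853 to 1.11 in limb 2 and 0.934 to 1.37 in head. The window that served as the ZRS viewpoint in earlier work on these data was at 1.04 and 1.06 in limb, 0.745 in body and 1.09 in head. That of SBE4 was at 0.846 and 0.993 in limb, 1.21 in body and 0.926 in head, so body was low at one enhancer and high at the other. The Rnf32 start had 1.71, 1.11, 0.634 and 1.37, and it holds the isolated contact.

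For the 187 pairs with both fragments in Lmbr1, observed over expected was 0.864 and 0.911 in limb, 0.744 in body and 0.947 in head. Body was the lowest sample there and the highest within Ube3c and Rbm33. For the 139 pairs within Ube3c the value was 1.36, 1.30, 1.58 and 1.47, and for the 139 pairs within Rbm33 1.04, 1.08, 1.15 and 1.06. Over all pairs, those within 1 protein-coding gene (547 pairs) gave 1.04, 1.06, 1.08 and 1.11, and those outside such genes (1142 pairs) 0.979, 0.996, 1.02 and 0.974. The 82 pairs that join different genes gave 0.788, 0.803, 0.584 and 0.879. None of these differences was tested.

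The most-read contacts were mostly abutting or near-abutting fragments. F461-R460, between Lmbr1 and Nom1, had 2777 and 3439 RPM in limb, 6196 in body and 3692 in head. F269-R271, in the desert, had 2650, 3159, 4923 and 2663. F45-R44, between Insig1 and En2, had 2292, 2958, 4395 and 2161. F132-R133, at the 3′ end of Rbm33, had 2403, 2554, 3669 and 1638. Head lay above both limb replicates for F461-R460, between them for F269-R271 and below them for the others. F95-R96, F269-R268, F461-R463 and F505-R506, the other most-read pairs, had 3704, 3698, 5277 and 4205 RPM in body. In all 8 body was the highest sample. They were chosen by their mean over the 4 samples, body included, which favours pairs that are high in body.

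One contact stood out against this order. F379-R403 joins the desert beside Rnf32 to Lmbr1 across 43526 bp, and had 5954 reads in limb 1, 3475 in limb 2, only 81 in body, and 7757 in head (1616 and 6141 in its libraries). The 24 pairs between the neighbouring fragments had at most 86 and 186 reads in limb, 150 in body, 189 in head library 1 and 80 in head library 2. The contact was thus 69.2 and 18.7 times its most-read neighbour in limb and 8.55 and 76.8 times in head, while in body it lay within the range of its neighbours. It carried 2.02% and 0.430% of the short-range reads in limb, 0.0114% in body and 0.906% in head.

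By the same criterion, at least 20 times the neighbouring pairs in 2 libraries, 9 isolated contacts were present in the region at any distance, and F379-R403 was the only one under 56 kb. The other 8 joined fragments 102159 to 1195456 bp apart. They were also low in body, with 22 to 668 reads, against 341 to 33102 in limb 1. As body was a single library, a contact isolated in body alone could not meet this criterion. The 10 most-read pairs at 84 kb or more took 12.9% and 7.60% of all reads in limb and 10.7% in head, against 0.309% in body, so the share left for short-range pairs moved with them. With those pairs left out of the total, short-range contacts held 50.0%, 51.0%, 67.5% and 48.4%.

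**Figure D5:**
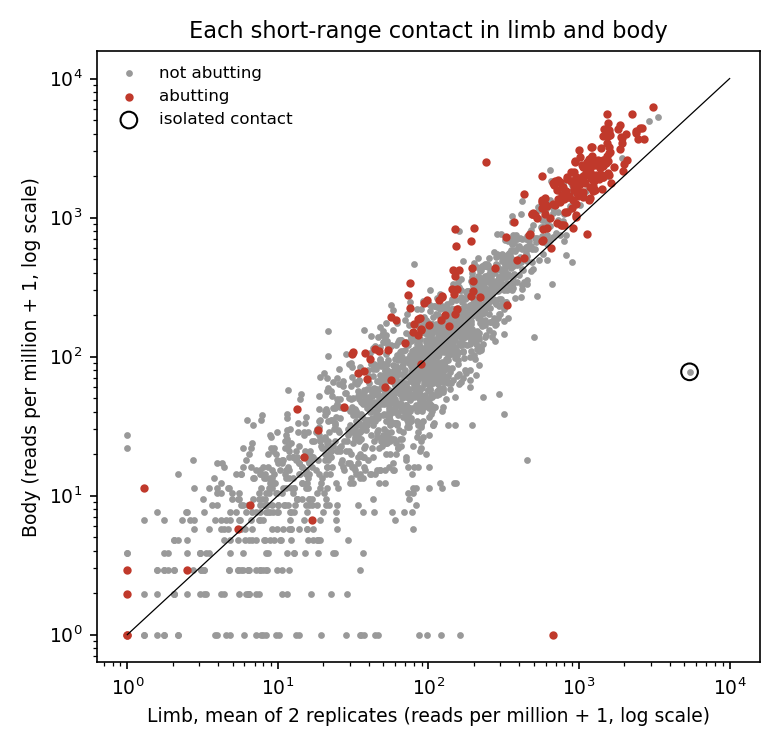
RPM + 1 of each of the 2141 short-range pairs in body (vertical axis, log scale) against the mean of the limb replicates (horizontal axis, log scale), with abutting pairs in red and the line of equality. Abutting pairs lie above the line for the most part, and the circled isolated contact F379-R403 lies far below it. The red point at the bottom right is F68-R69, unread in body and in limb 1.

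Tested pair by pair, no short-range contact passed the threshold between limb and non-limb. In edgeR's quasi-likelihood test over all pairs, with body and head as the non-limb samples, 0 of 17531 pairs passed an adjusted p of 0.05 (0%), and 0 of the 1932 short-range pairs tested. At an unadjusted p of 0.05 there were 32 short-range pairs (1.66%) and 621 of all pairs (3.54%). DESeq2 also called 0, with 41 short-range pairs at the unadjusted threshold. The biological coefficient of variation, the fitted spread of a pair within groups relative to its mean, was 1.06. Body and head form a single group in this fit, so the value includes the difference between these tissues.

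Limb against body gave 1 call in 22043 pairs (0.00454%), which was not a short-range pair, and limb against head gave 0 (0%). Among the 2013 short-range pairs tested, 0 passed in either comparison. At an unadjusted p of 0.05, 399 (19.8%) differed between limb and body, 381 of them lower in limb, against 3.70% of all pairs. On library totals in place of TMM these were 217 (10.8%), 180 of them lower in limb, against 2.99% of all pairs. For limb against head it was 72 (3.58%), against 4.82% of all pairs. Body and head were 1 sample each in this fit, the variance was taken from the limb replicates, and both comparisons share the limb libraries.

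The median log2 difference of limb over body changed with distance: -1.26 under 8 kb, -0.67 from 8 to 28 kb, -0.40 from 28 to 56 kb and 0.12 at 56 kb or more. These values follow TMM scaling, whose factor was 0.764 in body and 1.07 to 1.11 elsewhere. On library totals alone the median over all pairs moved from 0.01 to 0.53 and that over short-range pairs from -0.69 to -0.16, so the contrast between short and long range was kept and its zero was not. Limb over head gave 0.07, 0.15, 0.16 and 0.07 in the same classes.

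The pairs with the largest fitted limb over non-limb change illustrate this spread. F147-R143, between Shh and a fragment 3′ of it, had 24 and 439 reads in limb, 12 in body and 50 in head (log2 difference 2.82, SE 1.02, adjusted p = 1.00 in edgeR). F383-R403, beside the isolated contact, had 46 and 115 reads in limb, 7 in body and 18 in head. At the other end, the abutting pair F538-R539 in Ube3c had 223 and 261 reads in limb against 2663 in body and 1430 in head (log2 difference -3.16, SE 1.03, adjusted p = 1.00 in edgeR). Its limb and non-limb values did not overlap, which follows in part from how it was chosen. It did not pass the test. F493-R498, beyond Mnx1, had 18 and 217 reads in limb, 7 in body and 22 in head. F376-R393, beside Rnf32, had 9 and 4 reads in limb, 13 in body and 196 in head. F540-R526, also in Ube3c, had 0 and 6 reads in limb, 18 in body and 96 in head, all 96 from 1 of the head libraries.

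Counts just inside and just outside the 56-kb limit overlapped. Inside it, F367-R349 (55972 bp) had 26, 33, 93 and 52 reads in limb 1, limb 2, body and head and F73-R52 (55955 bp) had 30, 89, 68 and 81. Outside it, F93-R112 (56012 bp) had 39, 117, 64 and 87, and F162-R181 (56049 bp) had 80, 362, 166 and 288. Members were seldom unread, at 5.56% and 4.62% in limb, 3.46% in body and 5.00% in head, against 43.3%, 36.2%, 27.6% and 36.8% of the pairs farther apart.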

How the data were processed

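5C was performed by the authors on HindIII-digested, formaldehyde-fixed chromatin and sequenced on an Ion PGM. Reads were assigned to primer pairs on Galaxy with its Torrent pipeline for 5C (version not given in the sources used here), on mm9. The deposited values are raw read counts per primer pair, unfiltered, with the fragment coordinates and a distance in bp. That distance, as deposited, equals the gap between the right ends of both fragments in all 31358 pairs that have one. Primer amplification has no molecular identifiers, so intervals cover counting error only. A floor of 3 reads corresponds to 4.44, 1.75, 2.84 and 1.52 reads per 1000000 in limb 1, limb 2, body and head.

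Here, counts were divided by the library total. Pairs were selected by the distance and stretch limits, and head libraries were summed. Decay was fitted with a negative binomial regression (statsmodels 0.14.6, Python 3.11.15) per sample, with the library total as offset. Reads were tested with edgeR 4.0.16 (TMM, filterByExpr, Benjamini-Hochberg at 0.05) on the whole table, and with DESeq2 1.42.0 as an alternative. Genes were taken from GENCODE M1 and sequences from the NCBIM37 (mm9) genome. The scripts were tested on simulated data. Contacts and windows were named by rule: the 3 most-read pairs of each stretch, the 3 largest and 3 smallest fitted changes with at least 100 reads, the windows of the gene starts, SBE4 and the ZRS, and the 3 highest and 3 lowest windows with at least 10 pairs. The members, stretches and lists were chosen with earlier results of these data known. Limb replicates are the only biological replicates, and the sources used here do not say how the embryos were divided between them. The alternatives were other regressions, distance limits, scalings and filters, and leaving out each replicate.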

Additional observations from a re-analysis of the deposited data

How the results depend on the processing

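Body minus limb in decay exponent (-0.270) was negative under every alternative run: -0.0756 with Poisson regression, -0.163 with least squares on log2(RPM + 1), -0.205 with a limit of 28 kb, -0.331 without pairs closer than 8 kb and -0.204 with a term for each fragment. Ratios to the Shh stretch at 20 kb are given in the order limb, body, head. With least squares they were 0.665, 0.740 and 0.646 for the stretch 3′ of Shh and 0.938, 0.953 and 0.942 beyond Lmbr1, which turned the direction of the latter 3 and of body in the former. With primer totals as offset, not corrected for distance, they rose to 1.63, 1.91 and 1.57 and to 1.46, 2.05 and 1.53. The 28-kb limit gave 1.10 (limb) and 1.32 (body) 3′ of Shh and 1.20 (head) beyond Lmbr1, and leaving out pairs closer than 8 kb gave 1.08 (limb), 1.38 (body) and 1.22, 1.37 and 1.19. Poisson regression gave 1.03 and 1.11 in body. Beyond Lmbr1, moving the middle stretch 1 window to the right gave 1.03 (limb) and 1.01 (head), and leaving out the isolated contact 1.20 and 1.15. The cause was not tested. Leaving out a replicate moved the head ratios over 0.861 to 1.05 (3′ of Shh) and 1.02 to 1.13 (beyond Lmbr1), and head minus limb in share of reads from -6.10 to 1.44 percentage points. Body minus limb in share (22.0 points) was 17.0 without the 10 most-read distant pairs of each library and 4.13 without abutting fragments. Short-range calls stayed at 0 in all 11 alternatives of the test. Settings that leave out abutting fragments, the isolated contact or the fragments unread in some libraries, and the term for each fragment, were chosen after seeing the data. No paired analysis was possible because the head libraries are technical repeats of 1 sample and body has 1 library, so replicate numbers are not shared by biological samples. Body and head have no biological replicate, and unread pairs bound only reads under the floor.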
